A study of Mus musculus with 18 samples.

Results

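The 7 genes described here, of the small leucine-rich matrix proteins, were followed in articular cartilage of mouse knees after destabilisation of the medial meniscus (DMM), a surgical model of osteoarthritis. They are fibromodulin (Fmod), lumican (Lum), keratocan (Kera), asporin (Aspn), osteomodulin (Omd), decorin (Dcn) and chondroadherin (Chad). The 7 symbols were chosen with earlier results of these data known. Counts of members set beside shares of all probes are therefore descriptions and not independent tests. All probes that the platform annotation gives to these symbols were taken, which found 12 of the 22999 probes analysed, for 7 of 11499 named genes. Fmod and Lum have 2 probes each, Dcn has 4, and Kera, Aspn, Omd and Chad have 1 each. Every probe of these symbols was kept.

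The cartilage came from the medial tibial plateau of male C57Bl6/J mice operated on the right knee at 10 weeks of age. DMM cartilage was taken from the operated knee 2, 4 and 8 weeks after surgery, when the mice were 12, 14 and 18 weeks old, and contralateral cartilage from the unoperated left knee of operated mice of the same age. Tissue of 8 knees was pooled for each array, with 3 arrays in each of the 6 groups and 18 in all. The design has no sham operation, and the contralateral knee belongs to a mouse that had surgery. Which DMM pool shares its mice with which contralateral pool is not stated, so arrays were compared as unpaired, and n = 3 pools per group throughout.

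Small leucine-rich proteins share a curved core of leucine-rich repeats. Most of them bind collagen, and they help to set the diameter and spacing of collagen fibrils. Fibromodulin, lumican, keratocan and osteomodulin form the class that can carry keratan sulphate chains, while decorin carries a chondroitin or dermatan sulphate chain, and asporin is close to decorin but lacks such a chain. Chondroadherin lacks a glycosaminoglycan side chain of the decorin kind and binds cells through an integrin as well as collagen. Keratocan is best known from the cornea, where it is needed for the normal shape of the tissue, and osteomodulin from bone. Decorin and asporin also bind TGF-β.

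The genes lie in clusters on the mouse genome (build GRCm38.p6). Dcn, Lum and Kera are neighbours on chromosome 10, at chr10:97479500-97518163, chr10:97565501-97572703 and chr10:97606962-97613688. Aspn and Omd are neighbours on chromosome 13, at chr13:49544443-49567565 and chr13:49582462-49592612, with 14896 bp between them. Fmod stands on chromosome 1 at chr1:134037254-134048280 and Chad on chromosome 11 at chr11:94565047-94569127. The probes were assigned to genes by symbol, and their own positions within exons or UTRs were not analysed here.

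The promoters of a pair of members that rose (Fmod and Kera) and of the pair that fell (Omd and Chad) are shown because these genes moved in opposite directions in the same arrays. Each is the RefSeq window from 250 bases before to 50 after a start site, on the plus strand of build GRCm38.p6. Capitals mark matches, on either strand, to any of 4 motifs: TATAAA (the TATA box), CAGAC (the core of the Smad-binding element), TGANTCA (AP-1) and ACAATGG (SOX).
Fmod, chr1:134037004-134037303: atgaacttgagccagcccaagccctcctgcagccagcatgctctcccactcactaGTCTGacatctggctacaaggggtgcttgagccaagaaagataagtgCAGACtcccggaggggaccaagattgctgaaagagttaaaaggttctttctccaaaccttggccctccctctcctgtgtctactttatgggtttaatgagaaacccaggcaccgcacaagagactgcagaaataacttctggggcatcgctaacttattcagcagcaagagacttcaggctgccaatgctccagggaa
Kera, chr10:97606955-97607254: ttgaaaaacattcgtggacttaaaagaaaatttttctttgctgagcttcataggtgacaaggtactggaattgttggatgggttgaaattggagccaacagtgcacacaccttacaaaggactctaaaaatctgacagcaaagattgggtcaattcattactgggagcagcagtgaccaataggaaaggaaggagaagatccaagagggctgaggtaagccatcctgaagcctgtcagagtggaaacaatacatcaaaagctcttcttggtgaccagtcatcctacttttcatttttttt
Omd, chr13:49582212-49582511: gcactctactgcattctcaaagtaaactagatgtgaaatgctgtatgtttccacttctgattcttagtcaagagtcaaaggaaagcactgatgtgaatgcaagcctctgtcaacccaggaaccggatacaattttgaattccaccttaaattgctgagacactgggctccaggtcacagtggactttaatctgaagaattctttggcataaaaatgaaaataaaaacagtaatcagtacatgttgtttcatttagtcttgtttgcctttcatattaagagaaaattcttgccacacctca
Chad, chr11:94564797-94565096: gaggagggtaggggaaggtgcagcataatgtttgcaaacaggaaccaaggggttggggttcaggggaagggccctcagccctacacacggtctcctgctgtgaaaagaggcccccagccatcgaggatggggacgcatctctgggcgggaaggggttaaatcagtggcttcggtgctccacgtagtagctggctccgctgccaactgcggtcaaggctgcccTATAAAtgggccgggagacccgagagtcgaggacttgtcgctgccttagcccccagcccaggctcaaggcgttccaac
Positions count from the start site. The Fmod window held CAGAC at -148 and its reverse complement at -195, and the Chad window held TATAAA at -28. The Kera and Omd windows held none of the 4 motifs, and the Kera window is built on a start site 243 bases inside the annotated gene. No match overlapped another. Among 32817 windows of this length, 49.6% held CAGAC, 13.6% TATAAA, 7.81% TGANTCA and 3.67% ACAATGG. The GC content of the windows was 51% for Fmod, 41% for Kera, 37.7% for Omd and 61% for Chad, with a median of 52.7% over all windows. The Aspn window was searched as well and held TATAAA once on each strand, at -207 and -178. The arrays did not measure anything in these windows.

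The deposited values are quantile-normalised signals on a logarithmic scale, read here as log2, so a difference of 1 is a doubling. If the values were also variance-stabilised, which the sources leave unclear, differences of dim probes would be understated. A probe's value was compared between arrays, and the levels of different probes are given only to show which are dim. Array medians were 6.55 to 6.56, and array pairs correlated at 0.91 to 0.982 over all probes. Of 15 chondrocyte markers 14 were measured, and their summed linear signal lay between 27600 and 34700 in every array. At 2 weeks the sums were lower in DMM arrays, at 27600 to 31100 against 31400 to 34000 in contralateral arrays. They overlapped at 4 weeks (28900 to 34700 against 31300 to 33700) and at 8 weeks (31600 to 32500 against 30000 to 32200). Markers of other tissues were present too. Skeletal muscle markers (12 of 13 measured) fell in DMM cartilage at 2 weeks, 12 of 12, and at 4 weeks, 11 of 12. The contralateral array 2 of week 2 stood apart by its adipocyte markers, with a mean log2 signal of 9.64 against 8.05 and 7.06 in the other 2 arrays of its group. Array 2 of the contralateral group at 8 weeks stood apart by its muscle markers, at 9.62 against 7.54 and 7.45, and DMM array 2 at 4 weeks by its adipocyte markers, at 8.23 against 6.32 and 6.55. Where such an array was the lowest or highest of its group, some differences are also given without it. These are Fmod, Lum, Kera, Aspn and Omd at 2 weeks, Fmod at 4 weeks, and Fmod, Lum, Aspn and 1 Dcn probe at 8 weeks. That 8-week contralateral array was also low in neutrophil markers, at 6.91 against 9.43 and 9.69. DMM array 3 of week 8 was low in them too, at 6.66 against 9.74 and 8.92, and differences without it are not given separately.

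**Figure D1:**
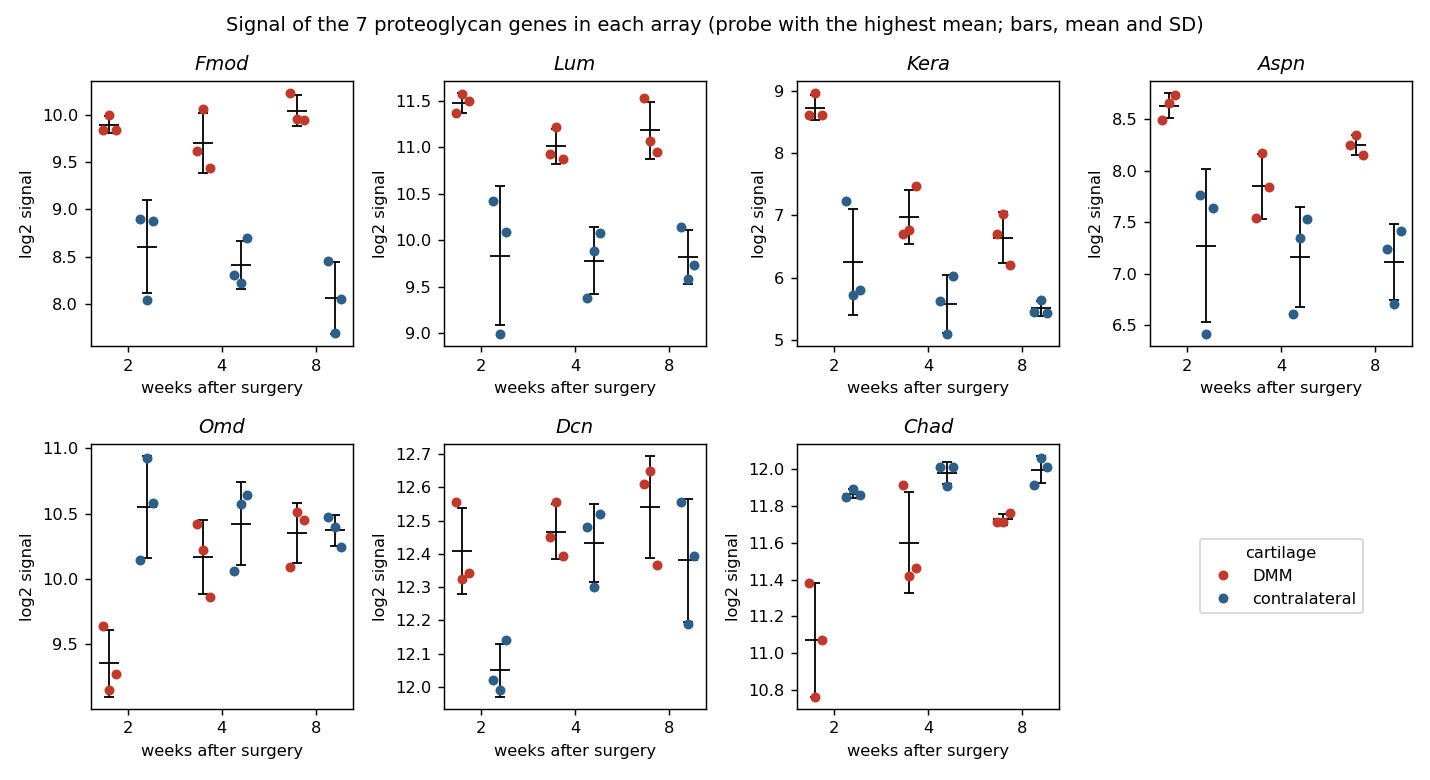
Log2 signal (vertical axes, scaled per gene) of each of the 7 genes in every array at 2, 4 and 8 weeks after surgery (horizontal axes), for the probe with the highest mean. Points are arrays, and bars give the mean and SD of 3 arrays. The DMM points of Fmod, Lum, Kera and Aspn lie above all contralateral points of the same week at all 3 weeks, and those of Omd lie below at 2 weeks only.

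At 2 weeks all 7 genes had at least 1 probe past the threshold. Fmod, Lum, Kera and Aspn rose in DMM cartilage, by 1.28 to 2.48 on the log2 scale for the probe with the highest mean, and Omd and Chad fell. Dcn rose by 1 of its 4 probes, ILMN_2604695, a dim one with a mean of 6.33 over the 18 arrays. The others, with means of 12.38, 12.16 and 7.03, did not pass (adjusted p = 0.141, 0.399 and 0.813, limma). In all, 7 of 12 probes rose and 2 fell at an adjusted p under 0.05 (limma, Benjamini-Hochberg over 22999 probes), where 3.33% of all probes rose and 3.3% fell, 6.63% in all. At an unadjusted p under 0.05 there were 10 of 12, against 21.5% of all probes. The arrays of the 2 groups did not overlap for 10 of the 12 probes, 8 of them higher and 2 lower in DMM cartilage, against 13.6% and 13.4% of all probes. Without DMM array 2 the count was 4 probes, and 390 of all probes in place of 1525. Bulk RNA of a pool does not tell a change in the number of cells of a type from a change of RNA per cell.

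At 4 weeks 5 probes rose, those of Fmod, Lum and Kera, and none of the 12 fell, while 0.343% of all probes rose and 0.296% fell, 0.639% in all. At an unadjusted p under 0.05 there were 7 of 12, against 13% of all probes. Without DMM array 2 of that week 2 probes passed, and 3 without DMM array 3 or contralateral array 1. Over all probes 55, 50 and 72 passed in these settings, in place of 147. At 8 weeks 0 of 12 probes passed, as did 0% of all probes, and 7 of the 12 had an unadjusted p under 0.05 where 8.67% of all probes did. The smallest adjusted p of that week over all probes was 0.0715, that of an Fmod probe. Probes whose DMM arrays all lay above the contralateral arrays numbered 6 at 4 weeks and 7 at 8 weeks, where 9.18% and 7.29% of all probes did so, and 1 (Chad) lay below at 8 weeks, as did 7.41% of all probes. Of the 12 probes, 6 were higher without overlap at every one of the 3 weeks, against 0.996% of all probes. These were the probes of Fmod, Lum, Kera and Aspn.

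**Figure D2:**
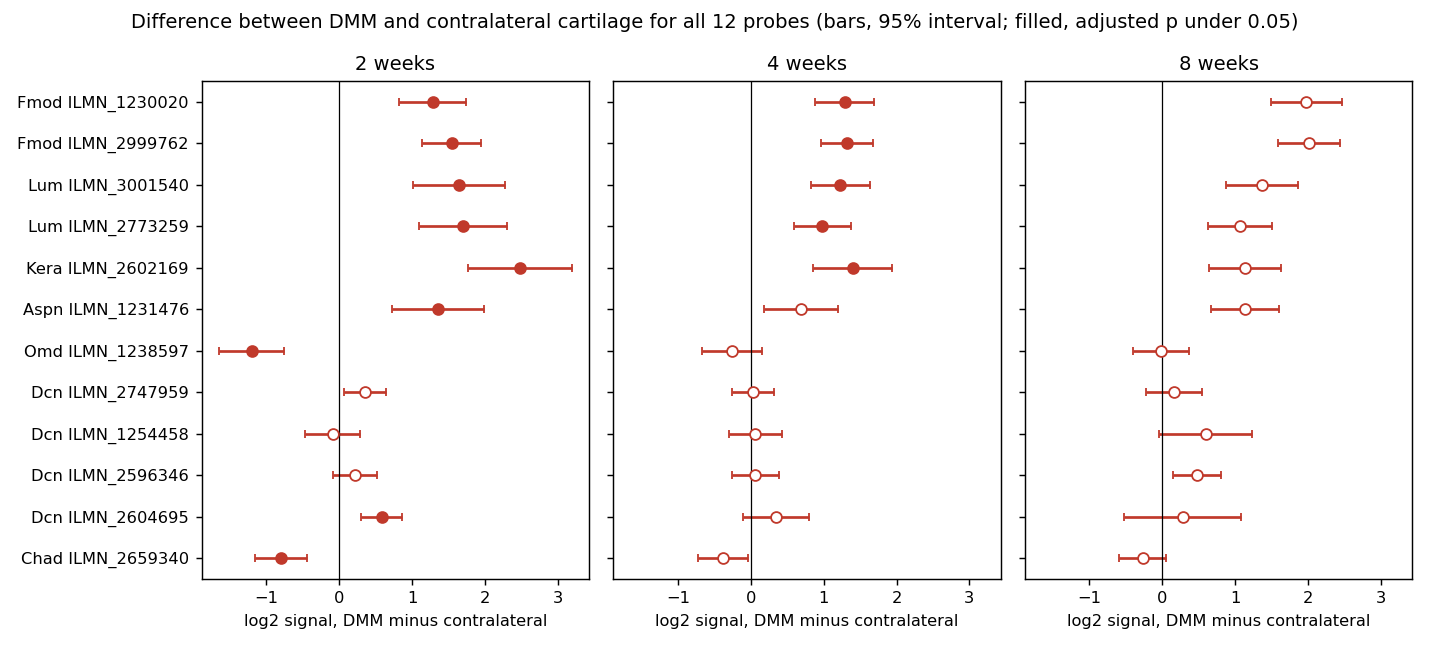
Difference in log2 signal, DMM minus contralateral (horizontal axes), of all 12 probes (rows) at 2, 4 and 8 weeks, with 95% intervals of the limma fit of 6 arrays. Filled points passed an adjusted p of 0.05, and the 2 Fmod probes lie at 1.97 and 2.01 at 8 weeks, where no point is filled.

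Fibromodulin, which binds type I and II collagen and steers fibril growth, was higher in DMM cartilage by a similar or larger amount at each week. At 2 weeks the Fmod signal was 9.84, 9.99 and 9.84 in the DMM arrays, against 8.90, 8.04 and 8.88 in the contralateral arrays. All 3 DMM arrays lay above the contralateral arrays. At 4 weeks the values were 9.61, 10.06 and 9.43 in DMM cartilage and 8.31, 8.22 and 8.70 in contralateral cartilage. At 8 weeks they were 10.23, 9.95 and 9.95 against 8.45, 7.69 and 8.06. The groups did not overlap at any week, and the contralateral array rich in fat markers gave the lowest of the 2-week values.

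Fmod thus rose by 1.28 ± 0.21 at 2 weeks (SE, adjusted p = 0.00637) and by 1.29 ± 0.19 at 4 weeks (adjusted p = 0.00967), both limma. At 8 weeks it was 1.97 ± 0.21 higher, a 3.93-fold difference with an adjusted p of 0.0721 in limma. That value was the 3rd highest of 22999 probes, after 96th at 2 weeks and 25th at 4 weeks. Without the fat-rich contralateral array the 2-week difference was 1.00, and it passed the threshold. Without DMM array 2 of week 4, also rich in fat markers and the highest of its group, the 4-week difference was 1.11. The 4-week call held with any 1 array left out (adjusted p up to 0.0487, limma). The second Fmod probe gave 1.55 ± 0.19, 1.32 ± 0.16 and 2.01 ± 0.19 at 2, 4 and 8 weeks, with adjusted p-values of 0.00172, 0.00402 and 0.0715 (limma), and ranked 2nd at 8 weeks. In the fit of all 18 arrays, which shares 1 spread over the groups, both probes passed at 8 weeks, with adjusted p-values of 0.000736 and 7.49e-05 (limma). Over all alternatives the adjusted p of the first probe at 8 weeks ran between 0.000736 and 0.6. Without the muscle-rich contralateral array, the lowest of its group for the first probe only, the 8-week differences were 1.79 and 1.97 (adjusted p = 0.175 for both, limma).

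Averaged over the 3 weeks the Fmod difference was 1.52 ± 0.13 (adjusted p = 3.29e-06, limma), and 1.63 ± 0.11 for the second probe, whose adjusted p of 2.87e-07 was the smallest over all probes. Contralateral Fmod was 0.54 ± 0.27 lower at 8 than at 2 weeks and DMM Fmod 0.15 ± 0.14 higher, neither of which passed the threshold (adjusted p = 0.702 and 0.683, limma).

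Lumican, a keratan sulphate protein of the same class that binds collagen near the fibromodulin site, was also higher at each week. At 2 weeks the Lum signal was 11.37, 11.58 and 11.49 in DMM arrays and 10.42, 8.99 and 10.09 in contralateral arrays. The spread lay in the contralateral group, where the fat-rich array was lowest. At 4 weeks Lum measured 10.93, 11.22 and 10.88 in DMM cartilage, against 9.38, 9.89 and 10.08 in contralateral cartilage. At 8 weeks the arrays gave 11.53, 11.07 and 10.95 against 10.14, 9.58 and 9.74. No DMM array overlapped the contralateral group of its week.

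Lum rose by 1.65 ± 0.29 at 2 weeks (adjusted p = 0.00848) and by 1.23 ± 0.19 at 4 weeks (adjusted p = 0.0137), and was 1.37 ± 0.22 higher at 8 weeks (adjusted p = 0.268, limma). The 8-week value passed in the fit of all 18 arrays (adjusted p = 0.0398) and was 1.25 without the muscle-rich contralateral array (adjusted p = 0.527, limma). The second Lum probe gave 1.70, 0.98 and 1.07, with adjusted p-values of 0.00595, 0.035 and 0.326 (limma). Neither Lum probe passed at 4 weeks in the fit of all 18 arrays (adjusted p = 0.0773 and 0.118, limma). The adjusted p of the 4-week values ran between 0.00456 and 0.0773 over all alternatives for the first probe, which lost its call without DMM array 2 (0.0678). For the second probe it ran between 0.00802 and 0.13, and the call ended on leaving out any DMM array or contralateral array 1. Without DMM array 2 of week 2 the first probe gave 1.60 at 2 weeks with an adjusted p of 0.0521, and without the fat-rich contralateral array 1.23 (0.000674). The average over weeks was 1.41 ± 0.16 and 1.25 ± 0.15, with adjusted p-values of 2.4e-05 and 3.93e-05 in limma.

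Keratocan showed the largest difference of the 7 genes at 2 weeks and the largest change between weeks. The 2-week Kera signal was 8.61, 8.96 and 8.61 in DMM arrays, against 7.23, 5.72 and 5.81 in contralateral arrays. At 4 weeks DMM arrays had 6.69, 6.76 and 7.47 and contralateral arrays 5.62, 5.09 and 6.02. At 8 weeks the values were 6.70, 7.01 and 6.21 in DMM cartilage and 5.44, 5.64 and 5.43 in contralateral cartilage. The 3 DMM arrays of week 2 lay above all other arrays of the series, and contralateral array 1 of that week was the next highest but for 1 DMM array of week 4.

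Kera rose 5.56-fold at 2 weeks, a log2 difference of 2.48 ± 0.33 (adjusted p = 0.00276, limma) that was the 2nd highest of all probes. It rose by 1.40 ± 0.25 at 4 weeks (adjusted p = 0.0316) and was 1.14 ± 0.22 higher at 8 weeks (adjusted p = 0.326, limma). In the fit of all 18 arrays the 4-week value had an adjusted p of 0.0893 (limma), and leaving out DMM array 2 or 3 or contralateral array 1 or 2 gave 0.068, 0.121, 0.0903 and 0.0707. The adjusted p at 2 weeks stayed between 0.000115 and 0.0223 over all alternatives, and without the fat-rich contralateral array, the lowest of its group, the difference was 2.21. Averaged over weeks the difference was 1.67 ± 0.19 (adjusted p = 2.4e-05, limma).

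Within DMM cartilage Kera fell by 1.76 ± 0.19 at 4 against 2 weeks (adjusted p = 0.000208) and by 2.09 ± 0.21 at 8 against 2 weeks (adjusted p = 0.0097, limma). The first of these was the 2nd most negative of all probes, and its adjusted p lay between 3.4e-05 and 0.0118 over all alternatives. The second lost its call on leaving out any DMM array of week 2 (adjusted p = 0.0514, 0.0514 and 0.0628). Contralateral Kera was 0.68 ± 0.36 and 0.75 ± 0.35 lower at 4 and 8 weeks than at 2 weeks, with adjusted p-values of 0.727 and 0.702 (limma). The DMM difference itself was 1.34 ± 0.46 smaller at 8 than at 2 weeks, with an unadjusted p of 0.00931 and an adjusted p of 0.341 in limma, so the change of the difference did not pass.

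Asporin, which competes with decorin for collagen, rose at 2 weeks. The Aspn signal was then 8.49, 8.66 and 8.73 in DMM arrays and 7.76, 6.42 and 7.64 in contralateral arrays. At 4 weeks it was 7.54, 8.17 and 7.84 in DMM cartilage and 6.61, 7.35 and 7.53 in contralateral cartilage. At 8 weeks DMM arrays had 8.25, 8.34 and 8.15 and contralateral arrays 7.24, 6.70 and 7.41. The groups did not overlap at any week, but at 4 weeks the nearest arrays lay next to each other.

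The Aspn difference was 1.36 ± 0.29 at 2 weeks (adjusted p = 0.0197), 0.69 ± 0.23 at 4 weeks (adjusted p = 0.22) and 1.13 ± 0.20 at 8 weeks (adjusted p = 0.326, limma). Leaving out any 1 of the 3 DMM arrays of week 2 ended the call of that week, with adjusted p-values of 0.0594, 0.0862 and 0.095 (limma) and differences of 1.30 to 1.42. Without the fat-rich contralateral array, whose Aspn was the lowest of the series, the difference was 0.93. Without the muscle-rich contralateral array the 8-week difference was also 0.93 (adjusted p = 0.527, limma). With 1 array left out the 4-week difference ran between 0.41 and 0.87 (adjusted p = 0.144 to 0.519, limma). Averaged over weeks it was 1.06 ± 0.17 (adjusted p = 0.000575, limma), and 0.85 with both contralateral arrays rich in fat or muscle markers left out (adjusted p = 0.00051, limma). Within DMM cartilage Aspn fell by 0.78 ± 0.16 at 4 against 2 weeks (adjusted p = 0.0193, limma), a call that ended in the fit of all 18 arrays (adjusted p = 0.38, limma) and on leaving out DMM array 2 or 3 of week 2 or array 1 or 3 of week 4 (0.0514 to 0.109).

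Osteomodulin moved against its neighbour Aspn at 2 weeks. The Omd signal was 9.64, 9.15 and 9.27 in DMM arrays, against 10.14, 10.93 and 10.58 in contralateral arrays. At 4 weeks DMM cartilage had 10.42, 10.22 and 9.86 and contralateral cartilage 10.06, 10.57 and 10.64. At 8 weeks the values were 10.09, 10.51 and 10.45 against 10.48, 10.39 and 10.24. The groups were apart at 2 weeks and overlapped at both later weeks, and the 3 DMM arrays of week 2 were the lowest of the series.

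Omd fell by 1.20 ± 0.20 at 2 weeks (adjusted p = 0.00726, limma). The later differences were -0.26 ± 0.19 and -0.02 ± 0.17 (adjusted p = 0.627 and 0.985, limma). Without DMM array 2 the 2-week value was -1.10 with an adjusted p of 0.0505 (limma), and without the fat-rich contralateral array, the highest of its group, -1.01 (adjusted p = 0.0054). Within DMM cartilage Omd rose by 0.82 ± 0.17 at 4 against 2 weeks (adjusted p = 0.0218) and by 1.00 ± 0.18 at 8 against 2 weeks (adjusted p = 0.0434, limma). The first of these had an adjusted p of 0.0828 in the fit of all 18 arrays (limma) and lost its call on leaving out DMM array 2 or 3 of week 2 or array 1 or 2 of week 4 (0.0533 to 0.115). The second lost it on leaving out any DMM array of week 2 or array 2 or 3 of week 8 (0.057 to 0.258). Contralateral Omd differed by -0.13 and -0.18 over the same spans (adjusted p = 0.931 and 0.854, limma). The change of the DMM difference between 2 and 8 weeks was 1.18 ± 0.30, with an unadjusted p of 0.000841 and an adjusted p of 0.223 (limma), and averaged over weeks Omd fell by 0.49 ± 0.12 (adjusted p = 0.0135, limma).

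Chondroadherin, a protein of cartilage matrix that links chondrocytes to collagen, fell at 2 weeks. The Chad signal was 11.38, 10.77 and 11.07 in DMM arrays and 11.85, 11.89 and 11.86 in contralateral arrays. At 4 weeks it was 11.91, 11.42 and 11.46 in DMM cartilage, against 12.01, 11.91 and 12.01 in contralateral cartilage. At 8 weeks DMM arrays had 11.71, 11.71 and 11.76 and contralateral arrays 11.91, 12.06 and 12.01. The contralateral arrays lay close together at each week, with SDs of 0.024 to 0.075, while the DMM arrays had SDs of 0.307, 0.275 and 0.029 at 2, 4 and 8 weeks. The groups were apart at 2 and 8 weeks.

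Chad fell by 0.79 ± 0.16 at 2 weeks (adjusted p = 0.0161, limma), and differed by -0.38 ± 0.16 and -0.27 ± 0.14 at 4 and 8 weeks (adjusted p = 0.332 and 0.636, limma). Leaving out DMM array 2 or 3 of week 2 ended the call, with adjusted p-values of 0.0801 and 0.0804 (limma). Averaged over weeks Chad fell by 0.48 ± 0.09 (adjusted p = 0.00165, limma). DMM Chad was 0.66 ± 0.17 higher at 8 than at 2 weeks, with an adjusted p of 0.132 (limma).

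Decorin is the founding member of the family. In its probe with the highest mean it differed by less than the other 6 genes at 2 and 4 weeks. The 4 Dcn probes did not give 1 picture, and they differed in brightness. Means over the 18 arrays were 12.38 for ILMN_2747959, 12.16 for ILMN_2596346, 7.03 for ILMN_1254458 and 6.33 for ILMN_2604695. The probe with the highest mean had 12.56, 12.32 and 12.34 in DMM arrays and 12.02, 11.99 and 12.14 in contralateral arrays at 2 weeks. The groups did not overlap there, but the difference of 0.36 ± 0.13 had an adjusted p of 0.141 (limma). At 4 and 8 weeks the difference was 0.03 ± 0.13 and 0.16 ± 0.17 (adjusted p = 0.942 and 0.821, limma), with 95% intervals of -0.26 to 0.32 and -0.22 to 0.54.

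Of the other Dcn probes, ILMN_2604695 rose by 0.59 ± 0.13 at 2 weeks (adjusted p = 0.0222), a call lost in the fit of all 18 arrays (adjusted p = 0.264, limma) and, with adjusted p-values of 0.0504 to 0.12, on leaving out 4 of the 6 arrays in turn. Its signal was 6.46, 6.59 and 6.64 in DMM arrays and 6.02, 6.02 and 5.89 in contralateral arrays. ILMN_2596346 differed by 0.22, 0.06 and 0.48 at 2, 4 and 8 weeks. Its groups were apart at 8 weeks, with 12.65, 12.73 and 12.80 in DMM arrays and 12.30, 12.13 and 12.32 in contralateral arrays, but the adjusted p was 0.456 (limma). ILMN_1254458 differed by -0.09, 0.06 and 0.59, and its groups overlapped at every week. Without the muscle-rich contralateral array, the lowest of its group at 6.22, its 8-week difference was 0.28. Averaged over weeks only ILMN_2596346 of the 4 passed, at 0.25 ± 0.08 with an adjusted p of 0.0467 (limma), and without both contralateral arrays rich in fat or muscle markers its adjusted p was 0.141. That call also ended on leaving out any of 13 of the 18 arrays (adjusted p = 0.0511 to 0.102) and with array weights (0.0716). Without contralateral array 3 of week 8, ILMN_2604695 passed as well, at 0.55 (adjusted p = 0.00453, limma).

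Probes of the same gene could be compared within each array. The Fmod probes correlated at r = 0.98 over the 18 arrays and at r = 0.83 after each array's group mean was taken off. For Lum these values were 0.98 and 0.95. The 6 pairs of Dcn probes had r between 0.20 and 0.64 over the 18 arrays, and between 0.14 and 0.50 after group means were taken off. The pair of bright probes, ILMN_2747959 and ILMN_2596346, gave 0.64 and 0.44. These are descriptions over arrays that the probes share.

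The DMM difference averaged over weeks was 0.11 lower for the first than the second Fmod probe, with p = 0.205 in an exact two-sided permutation test over all 8000 arrangements of the labels within weeks. For Lum the first probe exceeded the second by 0.17 (exact permutation p = 0.029), the only one of 8 pairs of probes under 0.05 before any correction. Leaving out 1 array gave exact permutation p-values between 0.00525 and 0.0788. The 6 pairs of Dcn probes differed by 0.01 to 0.22 in size, with exact permutation p-values between 0.206 and 0.979. Without contralateral array 3 of week 8, the difference of ILMN_2604695 exceeded those of ILMN_2747959 and ILMN_2596346 with exact permutation p-values of 0.0095 and 0.0352, and without contralateral array 2 of week 8 the Fmod pair gave 0.0478. Both probes of Fmod and of Lum had the same sign at all 3 weeks, as did 3 of the 6 pairs of Dcn probes.

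Over the 3 weeks together 9 of the 12 probes passed, 7 higher and 2 lower in DMM cartilage, where 4.81% of all probes were higher and 5.14% lower, 9.95% in all. At an unadjusted p under 0.05 there were 11 of 12, against 23.1% of all probes. All 7 genes had a probe among them, Dcn only by ILMN_2596346, whose call ended on leaving out any of 13 arrays. The exact two-sided permutation test within weeks, in which 0.00025 is the smallest possible p, gave that value for both Fmod probes, both Lum probes, Kera and Aspn. Those are the probes without overlap at every week, which already fixes that p, so the test adds nothing to it. For Chad the test gave 0.0005, for Omd 0.0185 and for the 4 Dcn probes between 0.0075 and 0.271. Without both contralateral arrays rich in fat or muscle markers 8 probes passed.

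**Figure D3:**
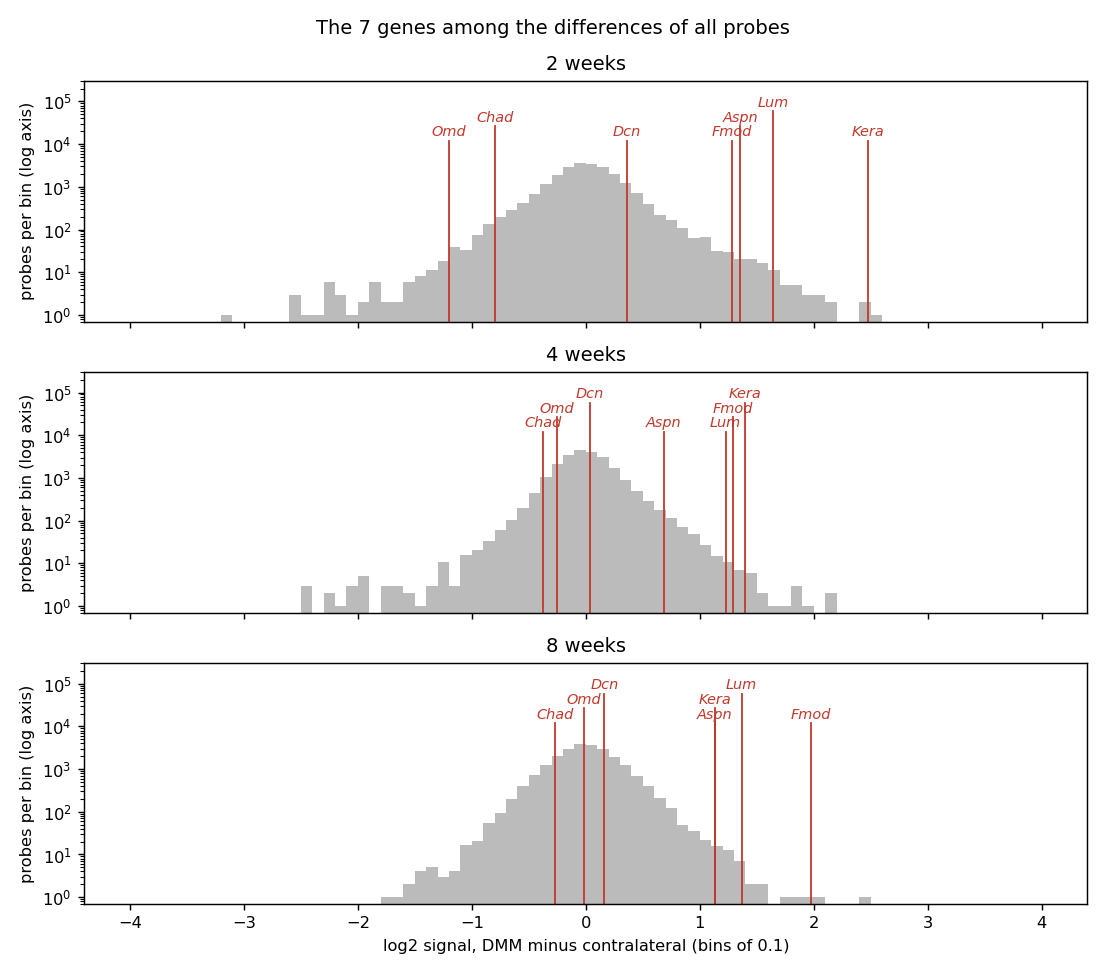
Number of probes (vertical log axes) by difference in log2 signal, DMM minus contralateral (horizontal axis, bins of 0.1), over all 22999 probes at 2, 4 and 8 weeks, with the 7 genes as vertical lines. Kera stands 2nd from the upper end at 2 weeks and Fmod 3rd at 8 weeks, while Dcn lies within the bulk of the probes at each week.

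Time within each arm was compared next. At 4 against 2 weeks in DMM cartilage, 3 of 12 probes fell (Kera, Aspn and 1 of the 2 Lum probes) and 1 rose (Omd), where 0.752% of all probes fell and 1.79% rose, 2.54% in all. In the fit of all 18 arrays 1 of these 4 calls held, that of Kera, and 203 of all probes passed in place of 585. Marker levels of other cells differed between the same groups. The mean log2 of neutrophil markers in DMM cartilage was 7.26, 10.1 and 8.44 at 2, 4 and 8 weeks, that of erythroid markers 7.31, 9.43 and 7.98, that of muscle markers 6.24, 7.77 and 7.70, and that of fibroblast markers 8.27, 7.95 and 7.83. Their part in these changes was not tested. That Lum probe fell by 0.53 ± 0.12 (adjusted p = 0.0406, limma), and the other by 0.47 ± 0.13 without passing (adjusted p = 0.097). At 8 against 2 weeks Kera fell and Omd rose, where 0.426% of all probes fell and 0.213% rose. Between 4 and 8 weeks 0 of 12 passed in limma, with 0.0739% of all probes (0.00435% higher and 0.0696% lower). At an unadjusted p under 0.05, 6, 7 and 4 of the 12 probes stood in these 3 comparisons, against 14.6%, 13.6% and 10.8% of all probes. Counted over the 3 comparisons, 4 member probes passed with all arrays, and 1 to 5 with 1 array left out. The count was 1 without DMM array 2 or 3 of week 2 and 2 without DMM array 1 or 3 of week 4. Calls over all probes fell in these settings too. Without DMM array 2 or 3 of week 2, 334 and 313 passed at 4 against 2 weeks, in place of 585. At 8 against 2 weeks 7 and 1 passed, in place of 147. Without DMM array 1 or 3 of week 4, 430 and 499 passed at 4 against 2 weeks.

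In contralateral cartilage 0 of 12 probes passed between any 2 weeks, where 0.148% of all probes passed between 2 and 4 weeks (0.143% higher and 0.00435% lower) and 0% in the other 2 comparisons. Of the members, 1 probe each had an unadjusted p under 0.05 at 4 against 2 and at 8 against 2 weeks, both of Dcn, and 0 at 8 against 4 weeks, where 7.33%, 7.22% and 7.34% of all probes did. The change of the DMM difference between weeks passed for 0 of 12 probes and for 0% of all probes in each of the 3 comparisons of weeks. Unadjusted p-values under 0.05 were found for 2, 4 and 3 of the 12 probes in the changes between 2 and 4, 2 and 8, and 4 and 8 weeks, where 5.44%, 10.5% and 7.57% of all probes had one.

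The 7 genes did not vary alike among replicate arrays. After group means were taken off, Lum and Aspn correlated at 0.86, Fmod and Lum at 0.87 and Fmod and Aspn at 0.77 over 18 arrays. Kera followed these less closely, at 0.27 to 0.43, and Omd ran the other way to Kera at -0.57. These arrays share their normalisation, and 1 of them, the fat-rich contralateral array, was low in Fmod, Lum and Aspn together.

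Levels of fibroblast and macrophage markers moved with Fmod, Lum, Kera and Aspn. Fibroblast and synovial markers (13 of 14 measured) had a summed linear signal of 6340 to 7250 in DMM arrays and 2630 to 4170 in contralateral arrays at 2 weeks. The sums were 4220 to 5840 and 2220 to 4120 at 4 weeks, and 4410 to 5720 and 3210 to 3870 at 8 weeks. Of the 13 markers 8 rose at 2 weeks, 2 at 4 weeks and 0 at 8 weeks, led at 2 weeks by Thy1, Mfap5 and Pdpn (1.87, 1.48 and 1.43). None of the list's markers is a member. Macrophage markers (9 of 11 measured) summed to 2440 to 3190 in DMM arrays and 1440 to 2000 in contralateral arrays at 2 weeks, to 2440 to 3370 and 1700 to 2340 at 4 weeks, and to 2050 to 2810 and 1890 to 2240 at 8 weeks. Of the 9 markers 3 rose at 2 weeks. Other lists differed as well. At 4 weeks endothelial markers (6 of 7 measured) summed to 471 to 671 in DMM arrays and 361 to 452 in contralateral arrays. The neutrophil sums (7 of 7) were 9780 to 11100 and 5240 to 8170. The osteoblast and osteocyte sums (9 of 10) were 9740 to 12000 and 7200 to 9300. Tendon and ligament markers (4 of 5) had median differences of 0.10, -0.17 and 0.06 at 2, 4 and 8 weeks.

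Array by array, after group means were taken off, the mean of the fibroblast markers correlated at 0.85 with Aspn, 0.69 with Lum, 0.53 with Fmod and 0.44 with Kera. For the macrophage markers these values were 0.73, 0.66, 0.45 and 0.56. Dcn, Omd and Chad gave 0.22, -0.10 and -0.51 with the fibroblast markers and 0.23, -0.30 and -0.45 with the macrophage markers. At 8 weeks the mean log2 of the fibroblast markers was 7.83 ± 0.19 in DMM cartilage and 7.53 ± 0.12 in contralateral cartilage (SD), while Fmod differed by 1.97. Chad correlated at 0.86 with the mean of the chondrocyte markers, of which Cytl1 and Ucma fell at 2 weeks (both by 1.45) and Col9a1 rose by 1.66. Dcn correlated at 0.72 with the neutrophil markers, whose mean log2 at 8 weeks was 9.74, 8.92 and 6.66 in DMM arrays and 9.43, 6.91 and 9.69 in contralateral arrays. Muscle markers, which fell at 2 and 4 weeks, correlated at -0.55 with Aspn and between -0.40 and 0.15 with the other 6 genes. The part of other tissues in the members' differences was not tested.

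**Figure D4:**
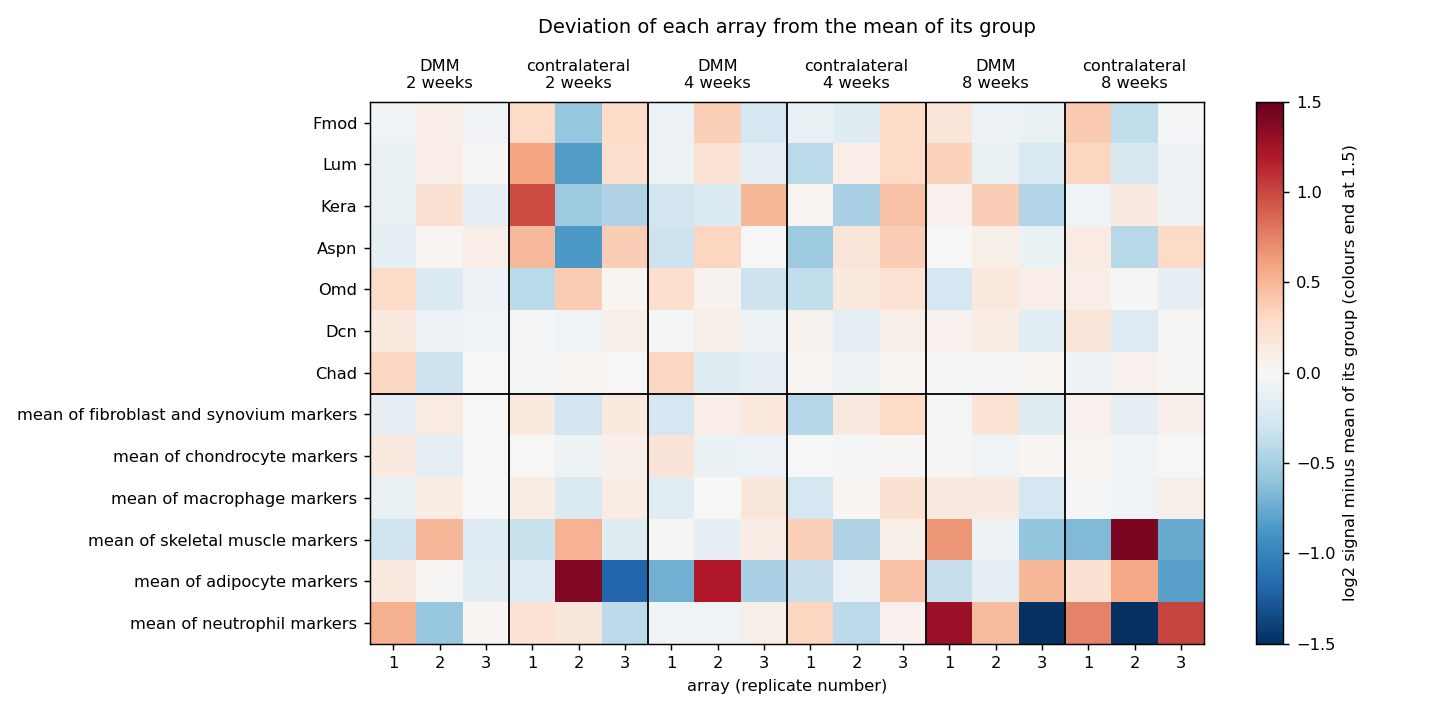
Log2 signal of each array minus the mean of its group (colour, ending at 1.5 in either direction) for the 7 genes and for the mean of 6 marker lists (rows), over the 18 arrays (columns, by group and replicate number). Contralateral array 2 of week 2 is low for Fmod, Lum and Aspn and high for adipocyte markers.

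Of the other small leucine-rich proteins, 5 of 12 were measured: Bgn, Prelp, Podnl1, Ecm2 and Ogn. None passed at any single week, and 3 rose in the average over weeks, Podnl1 by 0.54 ± 0.08, Bgn (biglycan, the nearest relative of decorin) by 0.41 ± 0.07 and Prelp by 0.38 ± 0.10, with adjusted p-values of 0.000319, 0.00164 and 0.017 (limma). Ecm2 and Ogn, which flank Aspn and Omd on chromosome 13, differed at 2 weeks by -0.25 ± 0.14 and 0.13 ± 0.17 (adjusted p = 0.339 and 0.723, limma). Along that stretch the 2-week differences therefore ran -0.25, 1.36, -1.20 and 0.13 for Ecm2, Aspn, Omd and Ogn. Along chromosome 10 they were 0.36, 1.65 and 2.48 for Dcn, Lum and Kera.

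Of 15 fibril collagens and partners measured, 8 rose and 0 fell at 2 weeks. The median difference over the list was 0.79, against 0.01 over all 11499 named genes, of which 468 rose and 363 fell. The largest were Col9a1 (1.66), Col3a1 (1.46) and Col14a1 (1.29), which code for chains of fibril-associated type IX, fibrillar type III and fibril-associated type XIV collagen. At 4 weeks, by the probe with the highest mean of each gene, Col6a1 rose, by 0.93 (adjusted p = 0.0466, limma), and at 8 weeks 0 of 15 passed. Another probe of Col3a1 and of Col5a2 also passed at 4 weeks, where their probes with the highest mean gave 1.02 and 0.75 (adjusted p = 0.0618 and 0.0917, limma). Of 7 cross-linking enzymes Loxl1 and Plod1 rose at 2 weeks (1.29 and 0.53).

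Of 8 genes of keratan sulphate synthesis, 1 rose at 2 weeks, B4galt1 (a galactosyltransferase) by 0.90, and 1 fell, Chst5 (a sulphotransferase) by 0.79, with a list median of 0.02. Of 15 genes for chondroitin and dermatan sulphate chains, 0 rose and 2 fell at 2 weeks, Csgalnact2 by 1.12 and Chst3 by 0.73. The list median was -0.15. None of either list passed at 4 or 8 weeks.

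Of 11 genes around TGF-β, the growth factor that decorin, asporin and fibromodulin bind, 5 rose and 1 fell at 2 weeks. Tgfbi (1.45), the ligand Tgfb3 (0.99) and the latency protein Ltbp1 (0.65) led the rise, and the co-receptor Tgfbr3 fell by 0.70. The list's median was 0.32, and 0 of 11 passed at 4 or 8 weeks. Of 10 matrix proteinases 7 rose at 2 weeks, led by Mmp3 (2.04), Mmp2 (2.01) and Mmp14 (1.65), and Mmp3 and Mmp2 rose again at 4 weeks (1.96 and 1.63). Of 8 cell-surface partners Itga11, a collagen receptor subunit, and Egfr rose at 2 weeks, by 1.27 and 0.60. Of the genes named from these lists, B4galt1, Chst3, Chst5, Col14a1, Egfr, Ltbp1, Mmp14, Plod1, Tgfb3 and Tgfbr3 lost their 2-week call without DMM array 2 (adjusted p = 0.0574 to 0.176). With all 18 arrays fitted together Chst5, Egfr and Ltbp1 missed the threshold (adjusted p = 0.0613, 0.14 and 0.054), and Col6a1 lost its 4-week call on leaving out any of 4 arrays (0.0628 to 0.208).

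For each member the 3 genes with the most similar signal over the 18 arrays were found among the named genes other than members. Each gene stood by its probe with the highest mean. Lum was closest to Dkk3, Nbl1 and Pcolce (r = 0.96 for each), and Aspn to Dkk3 (r = 0.97), Pamr1 and Prune2 (r = 0.95 for both). Outside the members Fmod was closest to Smim3, Socs2 and Dio2 (r = 0.93, 0.92 and 0.92), but it was closer still to the member Lum (r = 0.947). Kera was closest to Col5a2, C1qtnf3 and Itgbl1 (r = 0.95, 0.94 and 0.94). Omd was closest to Erg (r = 0.915) and then to Serpina1a and Serpina1b (r = 0.890 and 0.875). Chad was closest to Serpina1b (r = 0.96), Cytl1 (r = 0.94) and Serpina1a (r = 0.93). For Dcn the highest were Chil1, Enpp6 and Ace (r = 0.833, 0.813 and 0.805). With group means taken off, the r of Fmod with its 3 genes was 0.43 to 0.53 and that of Lum 0.83 to 0.91. Serpina1a and Serpina1b are near-identical paralogs, whose probes may share transcripts.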

How the data were processed

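RNA of cartilage from 18 pools of 8 knees was amplified (NuGEN Ovation Pico) and hybridised to Illumina Mouse WG-6 arrays. The authors selected probes by a threshold not stated and quantile-normalised the signals over all arrays (lumi 2.8.0, R 2.15.0, from the submitters' processing notes). What they deposited are log intensities, taken as log2 from their range, for 22999 probes. A deposited table of unnormalised signals has 36 columns whose names match no label, and was not used. The annotation gave 1 gene for 18998 probes, several for 6, and did not list 3995.

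Groups were compared with limma 3.58.1 (R 4.3.3), in fits of the 6 arrays concerned with Benjamini-Hochberg adjustment over all probes (threshold 0.05). The average over weeks and the changes between weeks used 1 fit of 18 arrays. Exact permutation tests and figures used Python 3.11.15 and matplotlib 3.10.9. With 3 arrays against 3 a single week allows no exact p under 0.1. Each gene is represented by its brightest probe on average, and all its probes are given. Genes other than members were named by a rule: up to 3 risen and 3 fallen of each list with the largest change in a week, and the 3 genes closest to each member. The 5 other small leucine-rich proteins are all named. The members and lists were chosen with earlier results of these data known. On simulated arrays, shifts of 1 were recovered for 65%, 63% and 36% of probes at 2, 4 and 8 weeks, and shifts of 2 for 97%, 99% and 90%. Alternatives were another fit, variance model, normalisation or probe filter, array weights, a replicate block, the mean of all probes and leaving out each array.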

Additional observations from a re-analysis of the deposited data

How the results depend on the processing

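The number of member probes past the threshold depended on the setting at 4 and 8 weeks. In 1 fit of all 18 arrays it was 2 at 4 weeks and 3 at 8 weeks, against 5 and 0. At 8 weeks it was 2 with a trended, robust variance model and 2 with probes of above-median brightness alone. Leaving out 1 array gave 4 to 9 probes at 2 weeks (9 with all), 2 to 5 at 4 weeks, 0 at 8 weeks, 8 to 10 for the average over weeks (9 with all) and 1 to 5 for weeks within DMM cartilage (4 with all). It gave 0 for weeks within contralateral cartilage and for the change of the difference. Without both contralateral arrays rich in fat or muscle markers, a setting chosen after the data were seen, the average over weeks kept 8.

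Values near 0 changed sign on leaving out 1 array. Dcn probe ILMN_1254458 ran between -0.232 and 0.046 at 2 weeks and between -0.039 and 0.221 at 4 weeks, ILMN_2596346 between -0.071 and 0.144 and ILMN_2747959 between -0.033 and 0.076 at 4 weeks, and ILMN_2604695 between -0.031 and 0.721 at 8 weeks. Omd ran between -0.100 and 0.112 at 8 weeks. The difference between probes ran between -0.157 and -0.074 for Fmod and between 0.131 and 0.193 for Lum. For Dcn it ran between -0.080 and 0.069 for ILMN_2747959 minus ILMN_1254458, -0.363 and -0.144 for ILMN_2747959 minus ILMN_2604695, -0.147 and 0.020 for ILMN_1254458 minus ILMN_2596346, and -0.287 and -0.069 for ILMN_2596346 minus ILMN_2604695. The cause was not tested.

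Over all probes, 390 to 1574 passed at 2 weeks with 1 array left out, against 1525. At 4 weeks 36 passed in the fit of 18 arrays, 316 with the trended model, 341 with a replicate block and 50 to 192 with 1 array left out, against 147. At 8 weeks 112, 4 and 3 passed in the fit of 18 arrays, with the trended model and among brighter probes, against 0. With 1 array left out, 1743 to 2486 passed for the average over weeks (2288 with all). Within DMM cartilage 313 to 600 passed at 4 against 2 weeks (585 with all). At 8 against 2 weeks 1 to 202 passed (147 with all), and at 8 against 4 weeks 0 to 95 (17 with all).

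Same-numbered arrays of a week did not deviate together (r between -0.102 and 0.135), so the numbers were not taken as pairs. With the replicate number as a block, 9, 5 and 0 member probes passed at 2, 4 and 8 weeks and 7 for the average over weeks, where Omd (-0.49, adjusted p = 0.0502) and a Dcn probe (0.25, adjusted p = 0.0961) lost their call in limma. Of the listed genes named, Plod1 and Egfr lost their 2-week call (adjusted p = 0.0603 and 0.0565). No block was fitted within an arm, whose weeks come from different mice. With 3 arrays a group, their number limits the precision.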
